A study of Mus musculus with 8 samples.

Results

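The genes described here encode 9 proteins that build, trim or degrade glycogen, or control those steps, and they are Gys1, Pgm1, Ugp2, Gbe1, Pygl, Pygb, Gsk3b, Gaa and Ppp1r3b. They were chosen by name as a pathway after measured values of the same comparison of rFSTL1 with PBS were known, so their differences between the groups are given as a description. They are 9 of 22013 genes in the table, and 7 of them were among the 10748 genes with enough reads to be tested. Cultures of RAW264.7, a macrophage-like mouse line derived from a virus-induced tumour, received either phosphate-buffered saline (PBS, 4 libraries) or recombinant follistatin-like 1 (rFSTL1, 4 libraries), a secreted glycoprotein given at 100 ng/mL for 24 h. PolyA RNA was sequenced, and the measurement was a read count per gene. All 8 libraries came from 1 cell line without genetic change. The labels do not say whether the libraries of a group came from separate cultures, so p-values measure only the spread between these libraries.

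Glycogen is a branched polymer of glucose that cells fill when glucose is plentiful and draw on when it is scarce, and macrophages keep a small store of it. Glucose 6-phosphate is turned into glucose 1-phosphate by phosphoglucomutase, activated to UDP-glucose by UDP-glucose pyrophosphorylase, added to the growing chain by glycogen synthase, and moved into side branches by the branching enzyme. Glycogen phosphorylase releases glucose units again in the cytosol, and acid alpha-glucosidase does so in lysosomes. Glycogen synthase kinase 3 phosphorylates and restrains glycogen synthase, whereas protein phosphatase 1, brought to the particle by a targeting subunit, removes those phosphates.

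Promoter sequence is shown for members on both sides of the comparison, Gys1 and Pgm1, which were higher in rFSTL1, and Gaa and Pygb, which did not pass the test. It comes from the RefSeq annotation of mouse build GRCm38.p6, in windows from 250 bases before to 50 bases after each annotated transcription start, and 8 of the 9 members had such a window (9 windows in all). The search was for ACGTG or GCGTG on either strand, the core of the element bound by hypoxia-inducible factors, and its matches overlap those of CACGTG, the palindromic E-box. Capitals mark a match, and all stretches are on the plus strand, which is also the strand of these genes.

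Gys1, chr7:45434710-45434838: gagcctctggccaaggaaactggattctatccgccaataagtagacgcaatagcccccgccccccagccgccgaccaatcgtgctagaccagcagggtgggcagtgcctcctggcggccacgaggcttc
Pgm1, chr4:99929233-99929257: tggaatgtatACGTGacactctagt
Pgm1, chr4:99929260-99929284: aatcacagtaACGTGctgaactctt
Gaa, chr11:119267813-119267838: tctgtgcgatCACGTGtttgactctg
Pygb, chr2:150786623-150786647: ctcgagcgtcCACGTtctcttcccg
Pygb, chr2:150786694-150786718: cagatcagccCACGCccatccacag

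The Gys1 stretch, the 129 bases before its start, holds no capitals because its whole window had 0 matches, as did the window of Gbe1. Pgm1 had 2 matches, 208 and 181 bases upstream of its start, and all 25 bases of each printed stretch lie in annotated exons of Itgb3bp, whereas the printed stretches of Gys1, Gaa and Pygb hold 0 bases of annotated exon. Gaa had a CACGTG at 140 bases upstream, a sequence found in 7.17% of all 32544 distinct windows. Pygb had 2 matches, at 163 and 92 bases upstream. Among the remaining members, Gsk3b had 1 match, Pygl had 2, and Ugp2 had 5 in one of its windows and 0 in the other, where matches on both strands at one palindromic site count once. In all, 6 members had a match in at least 1 window, and 44.0% of all distinct windows held one. A match, or the lack of one, describes letters in the window and says nothing of binding.

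The libraries held 15183118 to 20234477 counts in PBS and 15062023 to 19260960 counts in rFSTL1. The chi-square statistic per degree of freedom, which is near 1 for counting noise alone, was 3.02 to 4.14 between pairs of PBS libraries and 4.42 to 18.4 between pairs of rFSTL1 libraries. In rFSTL1, replicates 3 and 4 were nearest each other (4.42), replicate 1 was about as near to replicate 2 (5.52) as to replicate 3 (6.01), and replicates 2 and 4 were farthest apart (18.4). Macrophage genes were present, with Csf1r at 1210 to 1314 CPM (counts scaled by the effective library size) and Cd68 at 824 to 1019 CPM, whereas Adgre1, which encodes F4/80, was low at 2.74 to 4.43 CPM. Of 7 macrophage markers tested, edgeR and DESeq2 called 0 and limma voom called 1 lower (Ptprc). Over all genes with an adjusted p, edgeR called 0.344%, DESeq2 2.12% and limma voom 4.22%. Among the markers 1 had an unadjusted p under 0.05 by edgeR, as did 15.9% of all tested genes. The 10 marker genes of other cell types had at most 37 counts in any library, with Cd3e and Epcam among those at 0 in all 8.

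Of the 7 tested members, 2 were called higher in rFSTL1, Gys1 and Pgm1, and 0 were called lower. A call was a Benjamini-Hochberg adjusted p under 0.05 over all tested genes in edgeR's quasi-likelihood test. DESeq2 and limma voom gave the same calls, and 0 members were lower at an unadjusted p under 0.05. Across all genes, 0.344% were called in either direction (35 higher and 2 lower). The groups also did not overlap in CPM for 2 members, again Gys1 and Pgm1, and 8.16% of all tested genes had no overlap. Over all genes with an adjusted p, DESeq2 called 2.12% and limma voom 4.22%, and 15.9% had an unadjusted p under 0.05 by edgeR. Because the members were picked with this comparison known, nothing is read from those shares. The median log2 fold change of the 7 tested members was 0.08, beside 0.0058 over all tested genes, and 5 of the 7 values were positive.

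Gys1 (ENSMUSG00000003865) encodes the muscle-type glycogen synthase, the form used outside the liver. Its level in the PBS libraries 1 to 4 was 69.3, 69.1, 72.9 and 68.9 CPM. In the rFSTL1 libraries 1 to 4 it was 92.7, 85.2, 88.6 and 94.5 CPM. All 4 rFSTL1 libraries lay above all 4 PBS libraries, and the lowest of them was well above the highest PBS value. The means were 70.1 ± 1.88 and 90.2 ± 4.18 CPM (SD, n = 4 each), a log2 fold change of 0.36 with a standard error of 0.05 and an adjusted p of 0.00363 (edgeR, Benjamini-Hochberg). Expressed as a fold, the level was 1.29 times that in PBS.

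The first exons of Gys1 and of Ruvbl2, which encodes an ATPase of chromatin remodelling complexes, run head to head on opposite strands, and their annotated exons share 310 bases. Whether the counting used strand is not given in the sources used here. The counts of Gys1 were not whole numbers in any of the 8 libraries, but the sum of Gys1 and Ruvbl2 was whole in 8 of 8 (within 0.015), so reads were divided between these genes. That sum was 199, 200.2, 206 and 197 CPM in PBS and 231, 219.9, 236 and 247 CPM in rFSTL1, again without overlap. The mean rose by 20.2 CPM for Gys1 and was 12.5 CPM higher for Ruvbl2, whose own log2 fold change of 0.13 (standard error 0.05) was not called, with an adjusted p of 0.206 (edgeR, Benjamini-Hochberg). Reads of the shared bases cannot be assigned to either gene with certainty, so the size of the Gys1 difference carries that uncertainty. The other 8 members had whole counts throughout.

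Pgm1 (ENSMUSG00000025791) encodes phosphoglucomutase 1, which interconverts glucose 6-phosphate and glucose 1-phosphate and so serves both synthesis and breakdown. It was measured at 111, 101, 103 and 93.6 CPM in the PBS libraries 1 to 4. The rFSTL1 libraries had 126, 124, 123 and 131 CPM in the same order. Again every rFSTL1 library was above every PBS library, and the PBS libraries were the more scattered group, with PBS replicate 4 lowest. The means were 102 ± 7.07 and 126 ± 3.41 CPM (SD, n = 4 each), with a log2 fold change of 0.31 (standard error 0.05) and an adjusted p of 0.0172 (edgeR, Benjamini-Hochberg). This call depended on which library was left out. Without PBS replicate 1 it held, with a log2 fold change of 0.34 and an edgeR adjusted p of 0.0130 (Benjamini-Hochberg). Without PBS replicate 2, 3 or 4 the edgeR adjusted p became 0.0870, 0.0732 or 0.0867 (Benjamini-Hochberg), with log2 fold changes of 0.30, 0.31 and 0.26. Exons of Pgm1 share 398 annotated bases with Itgb3bp on the opposite strand, a gene at 11.7 ± 1.31 CPM in PBS and 10.8 ± 1.92 CPM in rFSTL1.

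**Figure D1:**
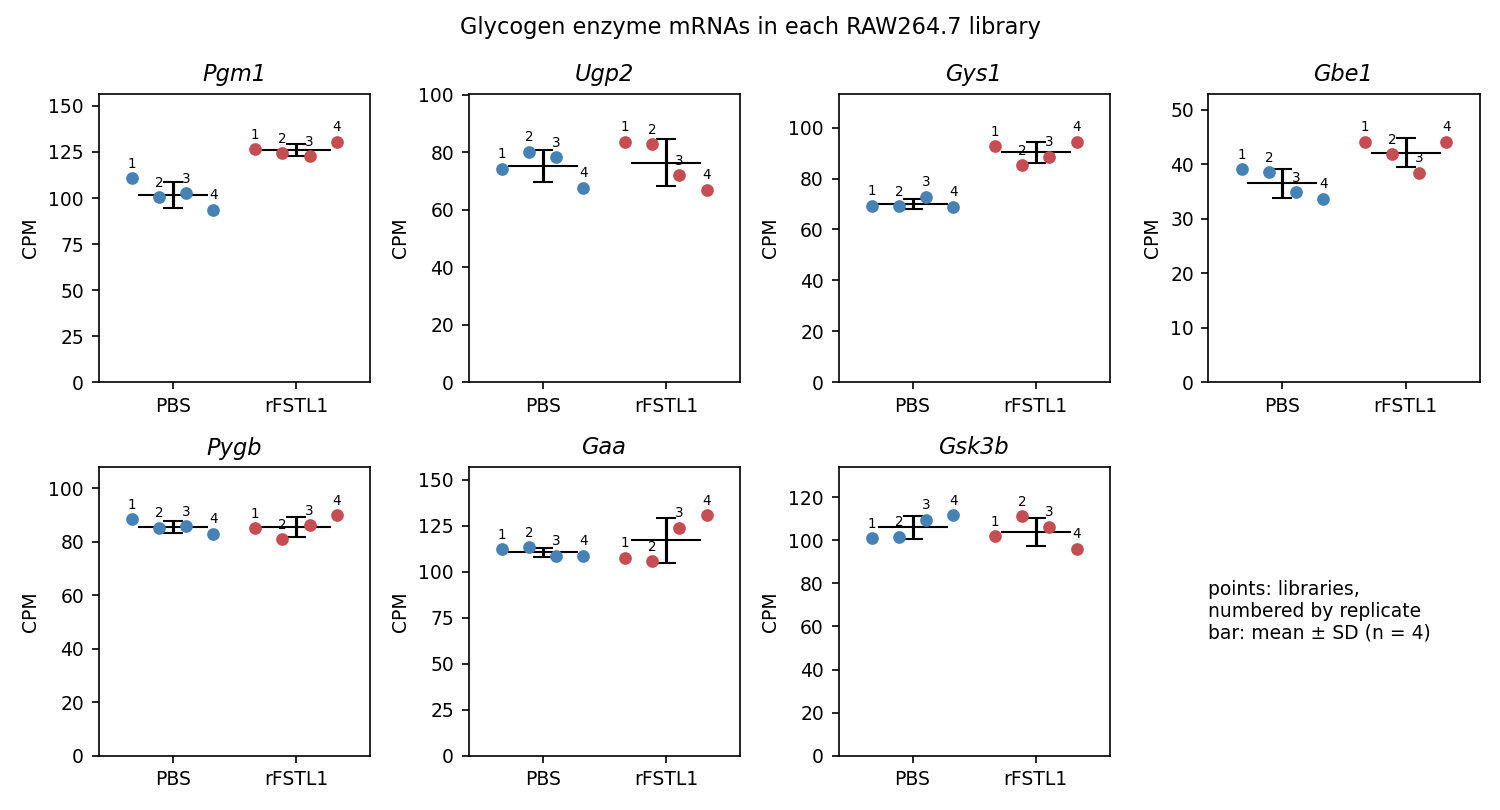
Level of each of the 7 tested members in every library, in CPM on axes that start at 0, with 4 PBS and 4 rFSTL1 points per panel numbered by replicate, a line at the mean and bars for the SD. The rFSTL1 points of Gys1 and Pgm1 lie above all PBS points, those of Gbe1 overlap PBS through replicate 3, and the points of Ugp2, Pygb, Gsk3b and Gaa are intermixed between the groups.

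Gbe1 (ENSMUSG00000022707), the single branching enzyme, had 39.1, 38.6, 34.9 and 33.7 CPM in PBS and 44.2, 41.9, 38.5 and 44.2 CPM in rFSTL1. Of the rFSTL1 libraries, 3 of 4 were above every PBS library, and replicate 3 lay inside the PBS range. The log2 fold change was 0.20 with a standard error of 0.07. Its approximate 95% interval, 1.96 standard errors to either side, was 0.07 to 0.34. This normal approximation, also used for the intervals below, is somewhat too narrow with so few libraries. The edgeR adjusted p of 0.181 (Benjamini-Hochberg) did not pass the threshold over all genes.

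Ugp2 (ENSMUSG00000001891), which makes the UDP-glucose that glycogen synthase uses, had 74.3, 80.3, 78.3 and 67.7 CPM in PBS and 83.7, 82.9, 72.0 and 67.0 CPM in rFSTL1. The rFSTL1 libraries held both the highest and the lowest values, with replicates 1 and 2 high and replicates 3 and 4 low. The log2 fold change was 0.02 with an interval from -0.12 to 0.16, and the edgeR adjusted p was 0.919 (Benjamini-Hochberg). Differences of the size seen in Gys1 lie outside that interval.

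Of the breakdown enzymes, the brain-type glycogen phosphorylase was the only phosphorylase among the members with reads. Pygb (ENSMUSG00000033059) had 88.5, 85.3, 85.8 and 83.0 CPM in PBS and 85.1, 80.9, 86.2 and 90.0 CPM in rFSTL1. The groups overlapped fully and their means were 85.6 ± 2.25 and 85.5 ± 3.75 CPM (SD, n = 4 each). Its log2 fold change had an interval from -0.09 to 0.09 and an edgeR adjusted p of 0.993 (Benjamini-Hochberg). Pygl (ENSMUSG00000021069), the liver-type phosphorylase, had 0 counts in all 8 libraries. A count of 0 allows up to 3 counts, or 0.148 to 0.199 CPM per library and 0.0215 CPM over the 139817195 counts of all 8, and this limit covers counting error only.

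Gaa (ENSMUSG00000025579), the lysosomal acid alpha-glucosidase, had 112, 113, 109 and 109 CPM in PBS and 108, 106, 124 and 131 CPM in rFSTL1. The PBS libraries were tightly grouped, whereas the rFSTL1 libraries split to both sides of them, replicates 1 and 2 below and replicates 3 and 4 above. The SD was 2.43 CPM in PBS and 12.3 CPM in rFSTL1, the log2 fold change was 0.08 with an interval from -0.04 to 0.20, and the edgeR adjusted p was 0.534 (Benjamini-Hochberg).

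Among the regulators, Gsk3b (ENSMUSG00000022812), the beta form of glycogen synthase kinase 3, had 101, 102, 109 and 112 CPM in PBS and 102, 111, 106 and 96.1 CPM in rFSTL1. These ranges overlapped, with a log2 fold change of -0.03, an interval from -0.13 to 0.08 and an edgeR adjusted p of 0.821 (Benjamini-Hochberg). Ppp1r3b (ENSMUSG00000046794), the targeting subunit of protein phosphatase 1 known best from liver, had 3 counts in all, 2 in PBS replicate 2 and 1 in PBS replicate 3, and 0 in the 4 rFSTL1 libraries. Neither Pygl nor Ppp1r3b passed the filter on low counts.

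Members departed from their own group's mean in different ways. PBS replicate 4 was the lowest PBS library for 5 of the 7 tested members, with deviations from the PBS mean on the log2 scale of -0.15 for Ugp2, -0.12 for Pgm1, -0.11 for Gbe1, -0.04 for Pygb and -0.02 for Gys1. The same library was also lowest for Hk2 (-0.14), Slc2a1 (-0.18), Vegfa (-0.26), Ndrg1 (-0.31), Bnip3 (-0.34) and Adm (-0.86). Without it the log2 fold change was 0.35 for Gys1, 0.26 for Pgm1, 0.16 for Gbe1 and -0.03 for Ugp2, and of these Gys1 was still called. In rFSTL1, Ugp2 was 0.14 and 0.12 above the group mean in replicates 1 and 2 and lay at -0.08 and -0.18 in replicates 3 and 4. Gaa went the other way, at -0.11 and -0.14 in replicates 1 and 2 and at 0.09 and 0.17 in replicates 3 and 4, and Gsk3a, the alpha form of the kinase, resembled Gaa (-0.10, -0.10, 0.06 and 0.13).

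**Figure D2:**
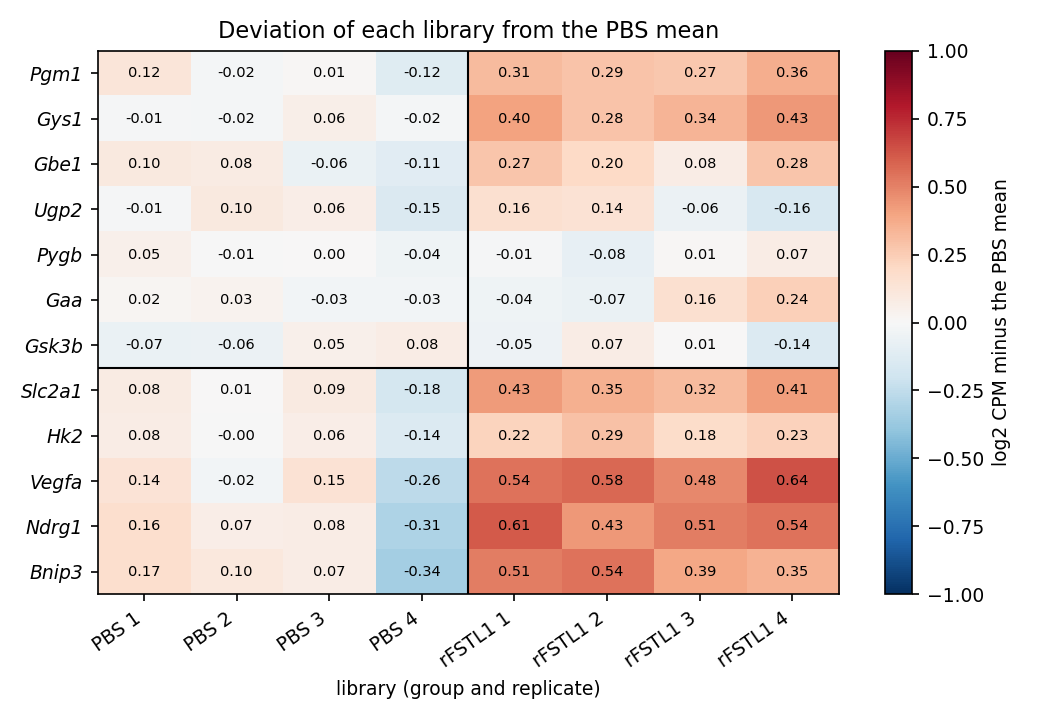
Heat map of log2 CPM in each library relative to the PBS mean of each gene, for the 7 tested members (above the line) and for Slc2a1, Hk2, Vegfa, Ndrg1 and Bnip3, with libraries in columns and a colour scale in log2 units. Gys1 and Pgm1 are positive in all 4 rFSTL1 libraries (0.27 to 0.43), whereas Ugp2 and Gaa change sign between rFSTL1 replicates 1 and 2 and replicates 3 and 4.

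Levels of different genes were compared per kilobase of the longest annotated transcript (CPM per kb). In PBS the order of the members was Pgm1 at 40.4, Gaa at 30.5, Ugp2 at 28.0, Pygb at 21.9, Gys1 at 19.1, Gsk3b at 12.8 and Gbe1 at 9.79 CPM per kb. Gaa (29.9 to 31.2) and Ugp2 (25.2 to 29.9) overlapped in PBS, and the other neighbours in that order did not. Among the wider set of pathway genes, Pgm1 ranked 4, after the protein phosphatase 1 catalytic subunits Ppp1ca (175 CPM per kb) and Ppp1cc (120.5 CPM per kb) and the kinase Gsk3a (46.6 CPM per kb). The order depended on the length used, since over coding length Gsk3b, whose longest transcript is mostly untranslated, came first among the members with 81.6 CPM per kb.

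Pygb and Gys1 changed places between the groups. In PBS, Pygb (21.2 to 22.6 CPM per kb) lay above Gys1 (18.7 to 19.8 CPM per kb), and in rFSTL1 Gys1 (23.2 to 25.7) lay above Pygb (20.7 to 23.0). The Gys1 to Pygb ratio was 0.833, 0.861, 0.903 and 0.883 in the PBS libraries and 1.16, 1.12, 1.09 and 1.12 in the rFSTL1 libraries. All 4 PBS ratios were below 1 and all 4 rFSTL1 ratios above it. The mean ratio was 0.870 ± 0.0300 in PBS and 1.12 ± 0.0267 in rFSTL1 (SD, n = 4 each), or 0.935 ± 0.0323 and 1.21 ± 0.0287 with coding length. The same uncertainty over shared reads holds for this ratio, and mRNA ratios are not ratios of enzyme activity.

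**Figure D3:**
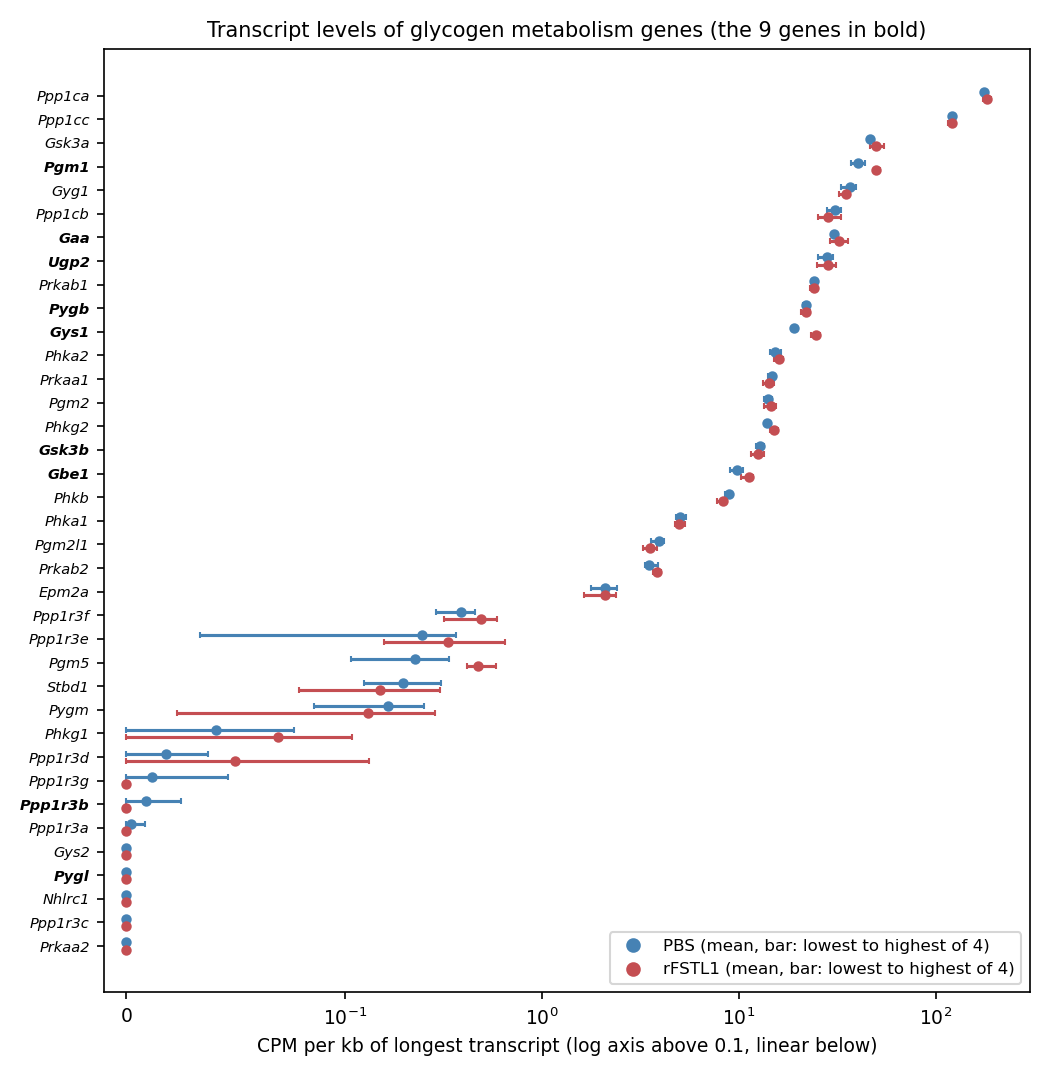
Level of the 9 members (bold) and other listed pathway genes per kilobase of the longest transcript (CPM per kb, on an axis that is logarithmic above 0.1 and linear below), with points for the mean of each group and bars from the lowest to the highest of its 4 libraries. Pgm1 is the highest member in both groups, Gys1 lies below Pygb in PBS and above it in rFSTL1, and Pygl and Ppp1r3b lie at or near 0.

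Further genes of the pathway were taken from lists of synthesis, breakdown, lysosomal glycogen and regulators, 29 beyond the members, of which 18 had enough reads to be tested. At an adjusted p under 0.05, edgeR called 0 of the 18, 2 had an unadjusted p under 0.05, DESeq2 called 0 and limma voom called 1. Of the 18 log2 fold changes 10 were positive and 8 negative, with a median of 0.0076 and a range from -0.14 to 1.09. For 2 of them, Pgm5 and Phkg2, the groups did not overlap, as was the case for 8.16% of all tested genes. Over all genes with an adjusted p, edgeR called 0.344%, DESeq2 2.12% and limma voom 4.22%. The 2 of 18 with an unadjusted p under 0.05 compare with 15.9% of all tested genes.

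In the synthesis list, Gyg1, which encodes the glycogenin primer, had 70.7 CPM in PBS and 67.0 CPM in rFSTL1, a log2 fold change of -0.08. Pgm2, a phosphoglucomutase by name, had a log2 fold change of 0.04, and Pgm2l1, a glucose 1,6-bisphosphate synthase, one of -0.14 (standard error 0.07) that did not pass the test. Pgm5, a relative of phosphoglucomutase found at cell adhesions and not known as an active mutase, was scarce, with 1.09, 0.720, 0.345 and 0.788 CPM in PBS and 1.47, 1.35, 1.88 and 1.44 CPM in rFSTL1. Its groups did not overlap, and the log2 fold change of 1.09 (standard error 0.31) had an edgeR adjusted p of 0.137 (Benjamini-Hochberg). The ratio of Pgm1 to Pgm2 per kb was 2.86 ± 0.266 in PBS and 3.44 ± 0.188 in rFSTL1 (SD, n = 4 each).

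In the breakdown list, Phkg2, a catalytic subunit of the phosphorylase kinase that switches phosphorylase on, was measured at 26.9, 25.9, 27.2 and 26.2 CPM in PBS and 27.5, 28.8, 29.8 and 30.2 CPM in rFSTL1. All rFSTL1 libraries of Phkg2 were above the PBS libraries by a small margin, with a log2 fold change of 0.13 (standard error 0.06) and an edgeR adjusted p of 0.310 (Benjamini-Hochberg). Counts of Phkg2 were not whole in 8 of 8 libraries, and its exons share 876 annotated bases with Ccdc189 on the opposite strand. The size of this small difference is therefore uncertain, and how its reads were divided was not tested. Pygm, the muscle-type phosphorylase, had 1 to 16 counts per library and was not tested.

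Among the regulators, 1 of the 7 genes for targeting subunits of protein phosphatase 1 was tested, Ppp1r3f, with 1.85 ± 0.360 CPM in PBS and 2.33 ± 0.589 CPM in rFSTL1 (SD, n = 4 each) and a log2 fold change of 0.31 (standard error 0.24, edgeR adjusted p = 0.537 with Benjamini-Hochberg). Ppp1r3e had 1 to 19 counts per library and Ppp1r3c had 0 in all 8. For the catalytic subunit Ppp1cb the log2 fold change was -0.13 with a standard error of 0.08, and for Prkab2, a glycogen-binding subunit of the AMP-activated kinase, it was 0.13 with the same standard error. The liver-type synthase Gys2, the ubiquitin ligase Nhlrc1 and the kinase subunit Prkaa2 had 0 counts in every library.

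**Figure D4:**
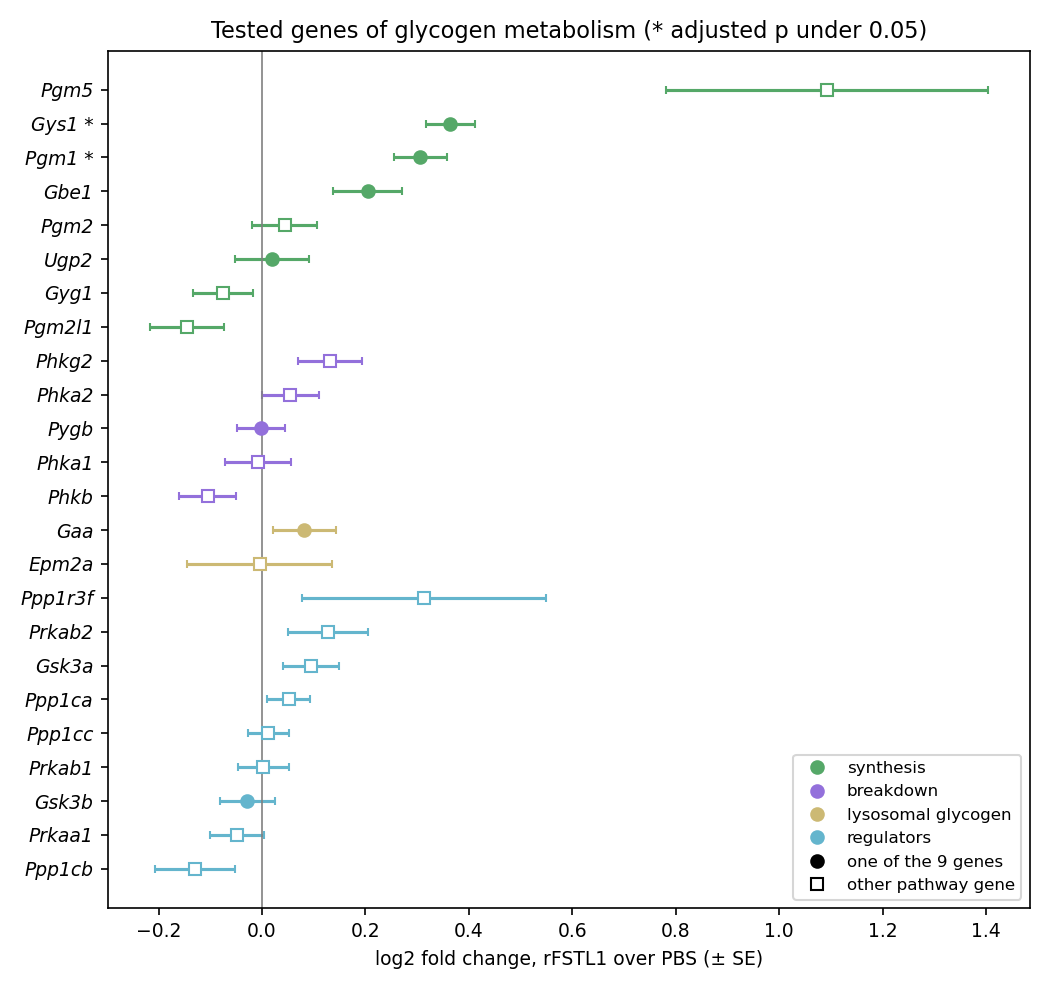
Log2 fold change of rFSTL1 over PBS with its standard error for the 7 tested members (filled circles) and 17 of the other tested pathway genes (open squares), coloured by list, with an asterisk at genes called by edgeR. The asterisks stand at Gys1 (0.36) and Pgm1 (0.31), and the widest bar belongs to the scarce Pgm5 (1.09).

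Upstream of the mutase step, 10 of 11 genes for glucose uptake and glucose 6-phosphate handling were tested, 1 was called by edgeR, 3 by DESeq2 and 5 by limma voom, and 5 had no overlap between the groups (Slc2a1, Hk1, Hk2, Gpi1 and Slc37a4). Over all genes these shares were 0.344% by edgeR, 2.12% by DESeq2 and 4.22% by limma voom, and 8.16% had no overlap. The called gene, Slc2a1, encodes the glucose transporter GLUT1 and had 246, 233, 246 and 205 CPM in PBS and 312, 296, 289 and 309 CPM in rFSTL1. It rose with a log2 fold change of 0.38 (standard error 0.05, edgeR adjusted p = 0.00676 with Benjamini-Hochberg), and the highest adjusted p when 1 library was left out was 0.0395. Hk2, the inducible hexokinase, had 196 ± 13.1 and 229 ± 7.31 CPM (SD, n = 4 each), a log2 fold change of 0.23 and an edgeR adjusted p of 0.0615 (Benjamini-Hochberg). On the other side of Ugp2, 8 of 8 genes of UDP-sugar and galactose metabolism were tested and 0 were called by edgeR, with 2 at an unadjusted p under 0.05, 0 called by DESeq2 and 1 by limma voom (Galk1), beside the same shares over all genes and 15.9% at an unadjusted p under 0.05. The largest log2 fold change there was that of Galk1, galactokinase, which phosphorylates free galactose and does not itself use UDP-glucose, at 0.28 (standard error 0.08).

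A list of 16 genes known to respond to low oxygen was set beside the members, and it includes genes that earlier results of these data had shown to be higher. Of its 14 tested genes 4 were called higher by edgeR (Benjamini-Hochberg), Vegfa (log2 fold change 0.55), Adm (1.02), Ndrg1 (0.51) and Bnip3 (0.43), DESeq2 called 7 and limma voom 8, and 11 had no overlap between the groups. The list's median log2 fold change was 0.29, with 12 values positive and 2 negative, Car9 (-0.10) and Kdm3a (-0.005). Since the list holds genes already seen to be higher, nothing is read from these counts. Over all genes edgeR called 0.344%, DESeq2 2.12% and limma voom 4.22%, and 8.16% had no overlap. When single libraries were left out, Adm lost its call in 3 of 8 fits (PBS replicate 2 or 3, or rFSTL1 replicate 3) and Bnip3 in 4 of 8 (the same libraries and rFSTL1 replicate 1), with highest adjusted p-values of 0.0662 and 0.115. In bulk RNA, a change in the make-up of the culture and a change in RNA per cell cannot be told apart.

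The genes whose pattern over the 8 libraries was nearest to that of Gys1, by the root mean square difference of centred log2 CPM, were Junb (0.038), a subunit of AP-1, Smox (0.050), spermine oxidase, and Hmox1 (0.053), haem oxygenase 1. Their log2 fold changes were 0.35, 0.34 and 0.37. For Pgm1 the nearest were Pfkp (0.033), the platelet-type phosphofructokinase, Itpk1 (0.040), an inositol phosphate kinase, and Pfkfb3 (0.049), which makes the activator of phosphofructokinase, with log2 fold changes of 0.29, 0.30 and 0.27. Itpk1 was not called (edgeR adjusted p = 0.0964, Benjamini-Hochberg). When single libraries were left out, Smox lost its call in 7 of 8 fits, and Pfkp and Pfkfb3 in 5 of 8 each. Junb lost its call in 2 of 8 and Hmox1 in 1 of 8. Counts of Pfkp were not whole in 8 of 8 libraries. Pgm1 stood 9 in the order of nearness to Gys1 (0.072), and Gys1 stood 27 in the order for Pgm1. Gbe1 stood 45 for Pgm1 (0.079) and 231 for Gys1. The measure includes the difference between the groups, so genes that share that difference are near by construction.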

How the data were processed

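PolyA RNA-seq of 8 libraries was analysed, with groups and replicate numbers from the sample labels. The authors deposited a table of expected counts, without normalization, for 22013 Ensembl genes, of which 112 had no symbol. The submitters' processing notes name Bowtie2 2.2.8, HISAT2, StringTie 1.3.1 and DESeq2. The genome build and annotation are not given in the sources used here. Of nonzero values, 13% were not whole. All were rounded, and the count tests planned for whole counts were used.

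Genes were kept by filterByExpr (minimum count 10) and scaled by TMM. The test was the quasi-likelihood F test of edgeR 4.0.16 in R 4.3.3, with Benjamini-Hochberg adjustment over 10748 genes and a threshold of 0.05. Code was tested on simulated data. Alternatives were DESeq2 1.42.0, voom with sample quality weights (limma 3.58.1), other scalings, filters and a threshold of 0.1, subtraction of a trend over transcript length and GC content (4-df splines, 10719 genes with a GENCODE length), a replicate block, coding length, and leaving out each library. Replicate numbers did not pair the libraries (correlations of deviations -0.034 to 0.014).

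The members and gene lists were chosen with earlier results of these data known. Named are the 9 members, the 6 other pathway genes with the largest log2 fold change (and any called), 2 genes each from the glucose and UDP-sugar lists (1 of them is not reported here), Vegfa, Adm, Ndrg1, Bnip3, and the 3 genes nearest to each called member. Others were named after their values were seen, as pathway steps, overlapping genes, markers or members of a count.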

Additional observations from a re-analysis of the deposited data

Results flagged for a closer look

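The Gys1 level in PBS replicate 3 was 72.9 CPM, where replicates 1, 2 and 4 had 68.9 to 69.3 CPM, which makes it the PBS library nearest to the rFSTL1 values. Its gap to the nearest library took up 0.893 of the group's range of 4 samples, above Dixon's 95% critical value. The Adm level in PBS replicate 4 was 3.02 CPM, where replicates 1 to 3 had 6.64 to 6.98 CPM, a gap of 0.914 of the range. The check covered 54 groups (27 genes in PBS and in rFSTL1), in which chance alone would mark about 2.7, and it marked these 2.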

How the results depend on the processing

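Gys1 was called in 16 of 16 alternatives, with log2 fold changes of 0.30 to 0.38 and adjusted p-values of 7.47e-08 to 0.0238. Pgm1 was called in 13 of 16 (0.26 to 0.34, adjusted p 3.68e-05 to 0.0870) and lost its call without PBS replicate 2, 3 or 4. Leaving out single libraries therefore left 1 to 2 members called. Gbe1 was called in 0 of 16 (0.16 to 0.27). The values near 0 changed sign: Ugp2 was -0.016 under voom and -0.032 to 0.078 with a library left out, Pygb was 0.0022 under voom, 0.0098 with upper-quartile scaling, 0.00051 with library totals alone and -0.027 to 0.018 with a library left out, Gsk3b was 0.014 without the length and GC trend and -0.070 to 0.0080 with a library left out, and Gaa was -0.015 without that trend. Removing the trend gave 0.30 for Gys1, 0.29 for Pgm1, 0.27 for Gbe1 and 0.11 for Ugp2. The mean PBS ratio of Gys1 to Pygb was 0.935 with coding length. Among other pathway genes, voom called 1 (Pgm5). With the replicate block 41 genes were called, Gys1 with an adjusted p of 0.00678 and Pgm1 with 0.0222. Over all genes, the 37 calls became 197 with DESeq2 (136 higher, 61 lower), 454 with voom (244 higher, 210 lower), 56 with upper-quartile scaling, 127 with all genes of at least 1 count, 74 without the trend and 133 at a threshold of 0.1. They became 11 to 99 with a library left out, lowest without PBS replicate 2 and highest without rFSTL1 replicate 1. The causes were not tested. Pygl, with no reads, entered no fit, and Ppp1r3b entered the fit of all genes with at least 1 count, where 8 members were tested and it was not called.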
